A study of Mus musculus with 4 samples.

Results

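The genes described here are 10 heat shock genes: Hsp90aa1, Hsp90ab1, Hspa1a, Hspa1b, Hspa8, Dnajb1, Hsph1, Hspb1, Hspd1 and Bag3, which encode the cytosolic Hsp90 proteins and the chaperones and co-factors that work with them or are induced with them. Members were found on the arrays by matching the RefSeq accession of each probe to a gene symbol. By that match 9 of the 10 genes had a probe of their own, 12 probes in all, out of 20144 genes with a symbol and 32575 genes or identifiers on the array. Hsph1 had 2 probes, Hspa8 had 3 and the others 1 each. No probe was named for Hspa1b, which was not analysed here. Hspa1a and Hspa1b are near-identical neighbouring genes, and how far the Hspa1a probe also reads Hspa1b RNA was not tested.

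Spinal cord and duodenum RNA came from male IP6K2-KO mice and their WT littermates, all 20 weeks old. In the IP6K2-KO line an exon of Ip6k2, which encodes inositol hexakisphosphate kinase 2, is deleted in the whole animal. Every mouse, control mice included, had been kept on CE-2 diet, then received a purified diet (iVid-neo) during 1 week, and was last fasted for 48 h before death. Each genotype and tissue had 1 array, 4 arrays in all on 1 slide, so the differences below were not tested and have no replicate check. All arrays shared the slide, and effects of the position of an array on it cannot be told apart from the groups. Whether the RNA of an array came from 1 mouse or from several, and whether both tissues came from the same mouse, is not given in the sources used here.

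Hsp90 is an ATP-driven chaperone that completes the folding of kinases, hormone receptors and many other client proteins, and IP6K2 is among the proteins it is known to bind, with its kinase activity held down by the binding. Hsp70 proteins bind unfolded stretches earlier on the same route: J-domain proteins such as Dnajb1 bring them clients and start ATP hydrolysis, and nucleotide exchange factors such as Hsph1 and Bag3 let the clients go. When unfolded proteins build up, heat shock factor 1, the product of Hsf1, binds heat shock elements in the promoters of many of these genes and raises their transcription, while the constitutive forms Hsp90ab1 and Hspa8 are made at a high level in nearly every cell.

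RefSeq promoter windows, each from 250 bases before to 50 bases after an annotated start of transcription (build GRCm38.p6), were at hand for 7 of the 10 genes, as 10 windows. Hsp90aa1, Hsp90ab1 and Hspa8 had none in the table. A heat shock element is made of inverted units of the bases GAA and TTC. Both strands were searched for pairs of units (GAANNTTC or TTCNNGAA, each of which reads the same on either strand in its fixed letters) and for runs of 3 units (GAANNTTCNNGAA or TTCNNGAANNTTC, which hold the pairs within them). The windows of Hsph1, the gene with the largest genotype difference below, of Hspd1, of Hspb1 and of Hspa1a are shown to let the elements be compared. Every match to a pair of units is in capitals, and each window is written from 5′ to 3′ on the strand of its gene.
Hsph1, chr5:149636287-149636586, minus strand: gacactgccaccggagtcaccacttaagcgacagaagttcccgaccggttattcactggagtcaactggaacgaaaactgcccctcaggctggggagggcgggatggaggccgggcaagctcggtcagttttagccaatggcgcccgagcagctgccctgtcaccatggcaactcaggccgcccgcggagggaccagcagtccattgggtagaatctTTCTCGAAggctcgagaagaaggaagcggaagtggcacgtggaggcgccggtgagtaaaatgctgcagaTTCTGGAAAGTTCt
Hspd1, chr1:55087883-55088182, minus strand: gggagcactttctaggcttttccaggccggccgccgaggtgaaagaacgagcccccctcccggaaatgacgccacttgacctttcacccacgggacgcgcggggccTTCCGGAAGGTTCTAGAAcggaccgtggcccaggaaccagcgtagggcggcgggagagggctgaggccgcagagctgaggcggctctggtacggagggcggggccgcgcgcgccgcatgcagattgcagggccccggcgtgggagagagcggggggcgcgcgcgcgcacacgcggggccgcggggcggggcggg
Hspb1, chr5:135887669-135887968, plus strand: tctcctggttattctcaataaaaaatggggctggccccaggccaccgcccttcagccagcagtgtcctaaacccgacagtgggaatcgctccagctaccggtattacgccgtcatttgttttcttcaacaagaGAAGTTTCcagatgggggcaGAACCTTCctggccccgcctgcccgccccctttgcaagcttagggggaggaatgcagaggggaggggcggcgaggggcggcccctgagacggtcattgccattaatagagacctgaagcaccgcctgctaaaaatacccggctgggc
Hspa1a, chr17:34972107-34972406, minus strand: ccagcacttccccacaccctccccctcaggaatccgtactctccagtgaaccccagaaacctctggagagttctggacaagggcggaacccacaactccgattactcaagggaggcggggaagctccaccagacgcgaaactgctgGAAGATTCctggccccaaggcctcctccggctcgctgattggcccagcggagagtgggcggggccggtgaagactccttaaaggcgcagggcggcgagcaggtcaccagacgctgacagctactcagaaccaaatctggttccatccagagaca

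Pairs of units were found in the windows of 6 of the 7 genes (Hsph1, Hspd1, Hspb1, Hspa1a, Hspa1b and Bag3), where 17.0% of all 27025 genes in the table and 15.1% of its 32851 windows held one. Runs of 3 units were found for 2 genes, Hsph1 and Hspd1, against 0.662% of genes and 0.603% of windows. In the Hspd1 window shown the matches began 144, 139 and 134 bases before the start and overlapped into one block, and the other window of this gene held none. In the Hsph1 window 1 match began 33 bases before the start, and the run of 3 units lay after it, within the transcribed bases. Hspb1 had its matches 117 and 97 bases before the start, and Hspa1a had 1 match 104 bases before it. The Hspa1b window was identical to that of Hspa1a at 296 of 300 bases and held its match at the same place. Neither window of Dnajb1 held a pair of units. These are matches of letters in a window and say nothing of whether a factor was bound.

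Signal is the brightness of a spot after the scanner software's background subtraction, and level means log2 of the signal minus the 75th percentile of its array. Over the 39429 probes, 51.6% to 77.3% were well above background, lowest on the WT duodenum array, and the 75th percentile of the signal ran from 68.0 on that array to 971 on the spinal cord array labelled IP6K2-KO. The Ip6k2 probe, for which no source used here says if it overlaps the deleted exon, read 451.5 on the WT and 1320 on the IP6K2-KO spinal cord array, and 139.4 and 572.0 in the duodenum. Its level was thus 1.45 higher on the spinal cord array labelled IP6K2-KO, against its label, and differed by -0.21 in the duodenum, so that genotypes are given below as labelled. Defining markers matched the tissue labels by their summed signal. All 5 neuronal markers were well above background on both spinal cord arrays. Their sum there was 216 and 209 times the 75th percentile, against 18.5 and 10.9 times in the duodenum. All 6 enterocyte markers were well above background on both duodenum arrays, where their summed signal was 2196 and 1124 times the 75th percentile, against at most 0.509 times in the spinal cord. Detection alone did not separate the tissues. On the IP6K2-KO duodenum array 4 neuronal markers were well above background, and on the WT spinal cord array 4 enterocyte markers were. Since these are bulk samples, fewer cells of a type and less RNA per cell cannot be told apart in any value below. All 12 heat shock gene probes were well above background and unsaturated on all 4 arrays.

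In the duodenum 1 of the 9 genes, Hsph1, was at least 2-fold higher on the array labelled IP6K2-KO than on the WT array, where 7.36% of the 16810 genes measured on both arrays were that much higher. None of the 9 was 2-fold lower, against 14.7% of all genes. The median difference of the 9 genes was -0.24 on the log2 scale beside -0.11 for all genes, and 2 of them, Hsph1 and Hspd1, were above 0, as were 44.2% of all genes. Each difference is given with a technical SD. It comes from the spread among the spots, within an array, of probes of like brightness spotted 10 times, combined over the arrays compared. It covers spot noise within an array, and no difference between hybridizations or between animals.

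Hsph1 encodes Hsp110, the large relative of Hsp70 that exchanges its nucleotide. Its brighter probe gave a signal of 11680 on the WT and 12651 on the IP6K2-KO spinal cord array, 42.9 on the WT duodenum array and 608 on the IP6K2-KO duodenum array, which are levels of 3.69, 3.70, -0.67 and 0.91. The spinal cord arrays were alike and high, and the WT duodenum array was the lowest of the 4. The duodenum difference was 1.58 (technical SD 0.10), or 2.99-fold, above that of 98.5% of all genes. The second Hsph1 probe had levels of 2.03, 2.06, -1.54 and -0.67 in the same order of arrays, and its duodenum difference of 0.87 (technical SD 0.12) had the same direction and stayed under 2-fold. Both probes were higher on the IP6K2-KO duodenum array, and they differed in size by more than their technical SDs.

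Markers of other cells also differed between the duodenum arrays. All 4 red cell markers were 2-fold lower on the IP6K2-KO array, with a median of -3.91 and a summed signal of 87.8 times the 75th percentile against 1529 times on the WT array. All 6 pancreatic acinar markers were below 0, with a median of -1.61 and sums of 2944 and 9020 times, and the median was 0.06 under quantile normalization, -1.74 under cyclic loess and -0.99 under normexp correction with flagged backgrounds replaced. The 6 enterocyte markers had a median of 0.09, and of 0.55, 0.00 and 0.72 under the same alternatives. They ran from -1.81 to 0.33, with 4 above 0, and their sums were 1124 times on the IP6K2-KO and 2196 times on the WT array. The part of these cells in the heat shock gene values was not tested.

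**Figure D1:**
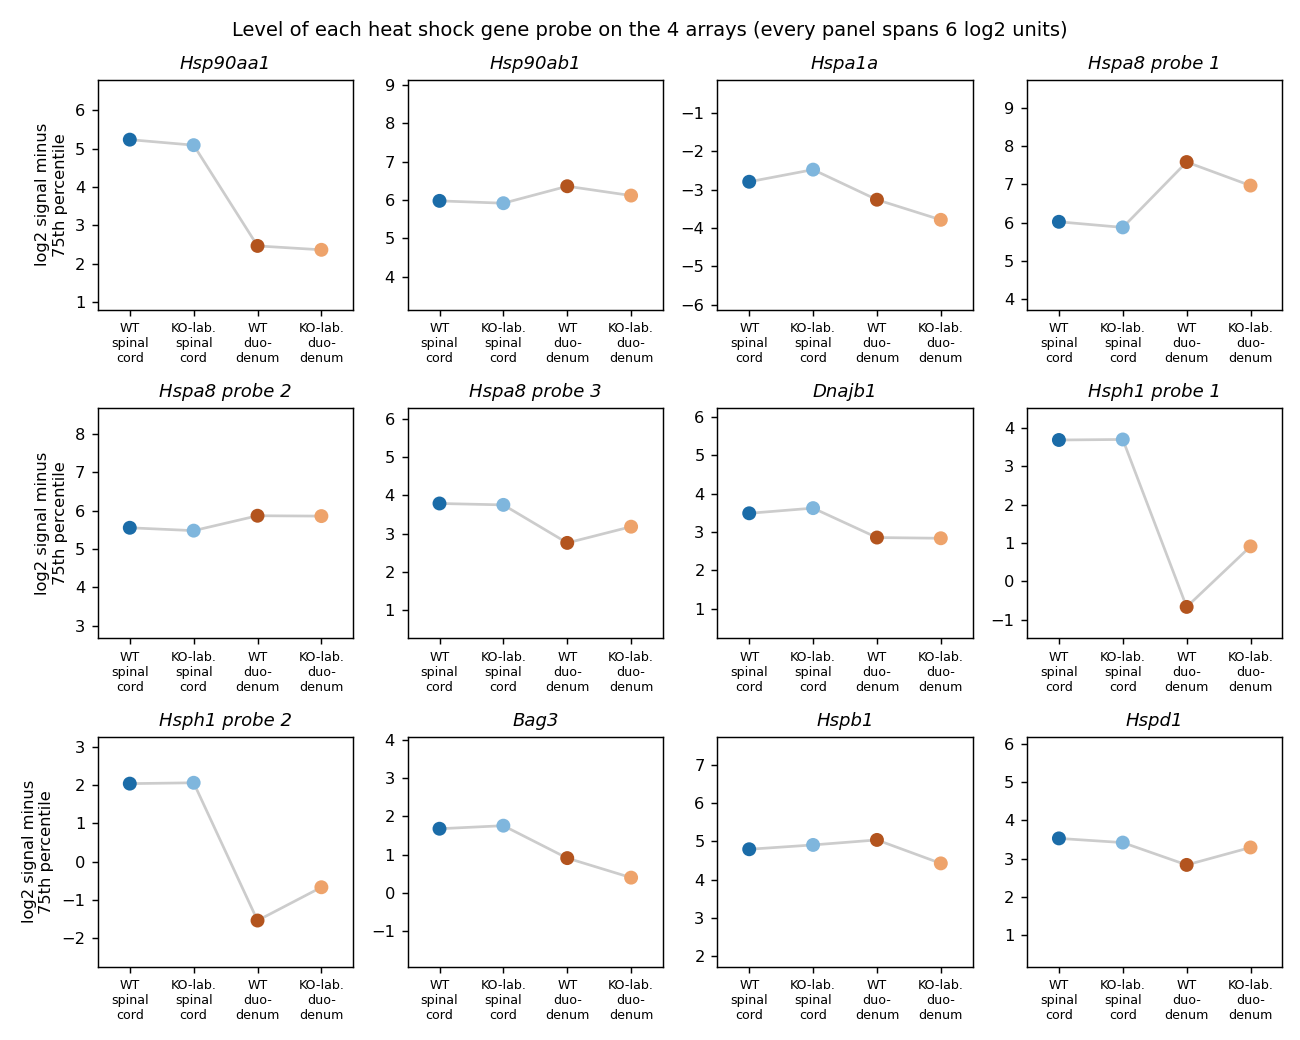
Level of each of the 12 heat shock gene probes on the 4 arrays, as log2 signal minus the 75th percentile of the array, 1 point per array and the same span on every vertical axis. Hsp90aa1 and both Hsph1 probes drop from spinal cord to duodenum, the Hsph1 probes differ between the duodenum arrays (-0.67 and 0.91 for probe 1), and the spinal cord arrays differ by at most 0.15 for every probe but Hspa1a (-2.79 and -2.47).

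The Hsp90 genes showed little difference between the duodenum arrays. Hsp90aa1, the stress-inducible cytosolic Hsp90, had levels of 2.46 on the WT and 2.36 on the IP6K2-KO duodenum array, a difference of -0.10 (technical SD 0.07). Hsp90ab1, the constitutive form, had levels of 6.36 and 6.12, a difference of -0.24 (technical SD 0.07). Against the median gene of the same arrays these were 0.01 and -0.13, and the sign for Hsp90ab1 turned under quantile normalization, which gives the arrays one distribution (0.20), under cyclic loess, which levels differences that follow brightness (0.46), and under normexp, a model-based background correction (0.56).

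Neither Hsp70 gene was 2-fold apart in the duodenum. Hspa1a, the classical stress-inducible Hsp70, gave dim signals of 7.10 on the WT and 23.4 on the IP6K2-KO array, which are levels of -3.26 and -3.78. It differed by -0.52 between them (technical SD 0.25, the widest of the 12 probes). Hspa8, the constitutive Hsc70, had levels of 7.59 and 6.97 by its brightest probe, a difference of -0.61 (technical SD 0.07), but the other Hspa8 probes gave -0.01 and 0.42. The 3 Hspa8 probes therefore set no direction for the gene.

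The partners of Hsp70 went separate ways. Dnajb1, the inducible J-domain protein that works with Hsp70 on aggregates, had levels of 2.86 and 2.84 and a difference of -0.02 (technical SD 0.07). Bag3, which links Hsp70 to small heat shock proteins and to autophagy, had levels of 0.91 and 0.40 and a difference of -0.51 (technical SD 0.08). Bag3 and Hsph1 both act as exchange factors, and their differences had opposite signs.

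Hspb1, the small heat shock protein Hsp27, which holds unfolded proteins without using ATP, had levels of 5.04 and 4.43 in the duodenum and a difference of -0.61 (technical SD 0.07). Hspd1, the mitochondrial chaperonin Hsp60, had levels of 2.83 and 3.29 and a difference of 0.46 (technical SD 0.07). After Hsph1 it was the highest of the 9. All of the duodenum differences but that of the brighter Hsph1 probe lay between the 5th and the 95th percentile of all genes, -1.74 and 1.16.

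**Figure D2:**
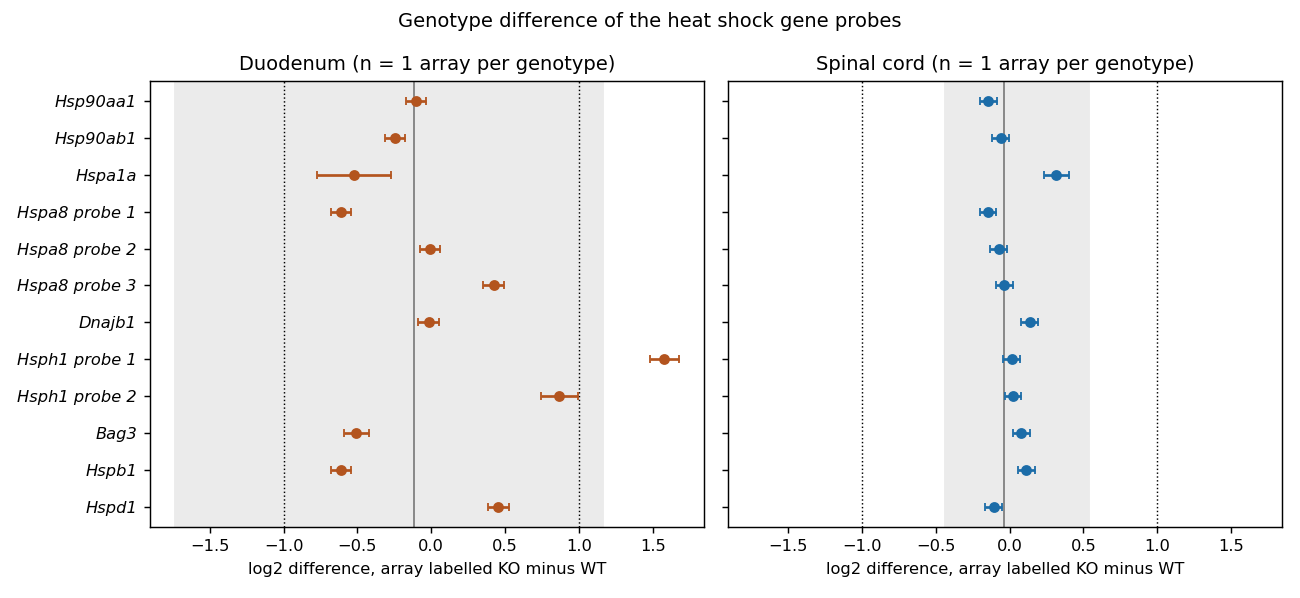
Log2 difference between the array labelled IP6K2-KO and the WT array for each probe in duodenum and spinal cord. Bars are the technical SD, the grey band runs from the 5th to the 95th percentile of all genes measured, the solid line is their median and the dotted lines mark 2-fold. Hsph1 probe 1 lies outside the band in duodenum (1.58) and every probe lies inside it in spinal cord.

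Differences in the duodenum depended on brightness over the whole array, and this touches the heat shock genes unequally. With all genes divided into 5 equal classes from dim to bright, the median difference was -0.32, 0.09, 0.10, -0.06 and -0.38. Hspa1a lay in the dimmest class and Hsp90ab1, Hspa8, Hspb1 and Hspd1 in the brightest, where 16.9% of genes were 2-fold lower and 1.87% 2-fold higher. Hsph1 and Bag3 lay in the middle class, where 10.2% were lower and 8.72% higher. Set beside its own class, the Hsp90ab1 difference of -0.24 was above the median of genes as bright, and the Hspd1 difference of 0.46 was further above it. In the spinal cord the medians of the classes ran only from -0.06 to -0.03. How much of the duodenum values comes from the dim WT array was not tested.

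**Figure D3:**
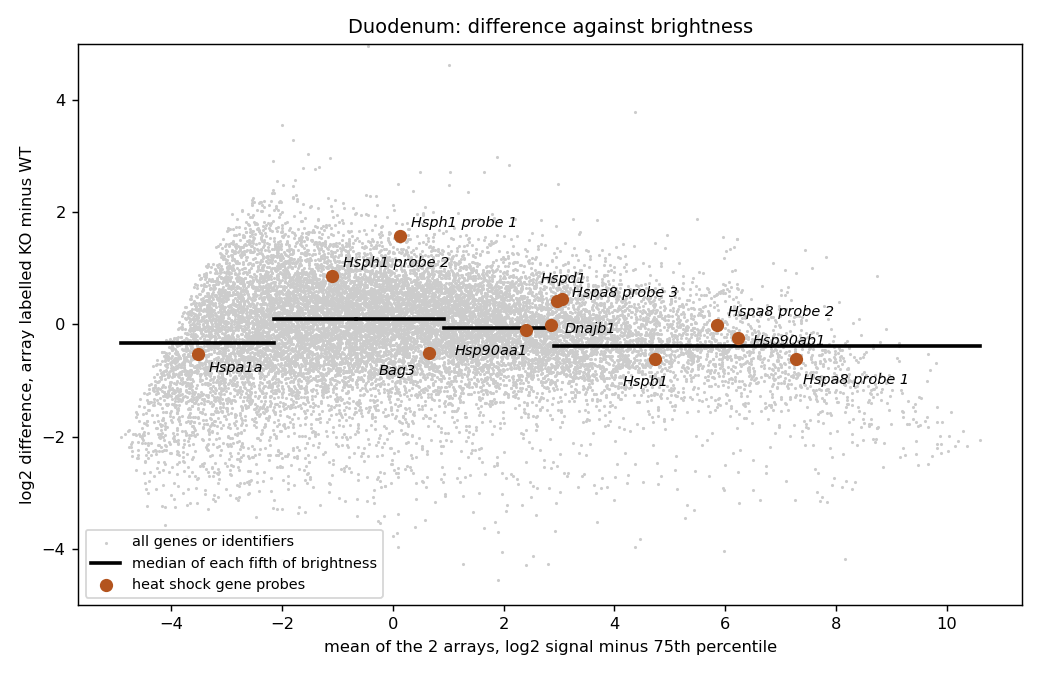
Log2 difference in the duodenum against the mean level of the 2 arrays, for all genes measured (grey), with the median of each of 5 classes of brightness (bars) and the heat shock gene probes (orange). The median is -0.38 in the brightest class, where Hspa8 probe 1 and Hspb1 lie at -0.61, and 3 genes lie beyond the vertical axis.

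Scaling on spiked-in control RNA shifted the median gene by 2.89 in the duodenum and by -0.21 in the spinal cord. All 9 heat shock genes were then at least 2-fold higher on the IP6K2-KO duodenum array, as the median gene was, so that values from other ways of scaling are best read against the median gene. On that footing Hsph1 was 1.69 above it as first scaled and 1.15 to 1.75 over the 9 alternatives. Hspd1 was 0.57 above it and 0.57 to 1.09 over the alternatives. Dnajb1 (0.10 to 0.63) and Hsp90aa1 (0.01 to 0.55) also stayed above it over the alternatives. Hspa1a stayed below the median gene, from -1.16 to -0.37, and so did Bag3, from -0.51 to -0.09. Median centring and spiked-in scaling move every gene of an array alike. Read against the median gene they repeat the first value and could not change a sign. The low ends for Hspd1, Dnajb1 and Hsp90aa1 are that first value again. The deposited table is close to quantile normalization, so the alternatives are not independent of each other. Hspb1, at -0.50, reached 0.18 under normexp correction, and Hspa8, also at -0.50, was above 0 under quantile normalization, cyclic loess, normexp correction, the deposited table and the mean of its probes. Normexp correction, which adds 50 to each corrected signal, left Hsph1 just under 2-fold at 0.97 for its brighter probe and at 0.01 for the second.

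**Figure D4:**
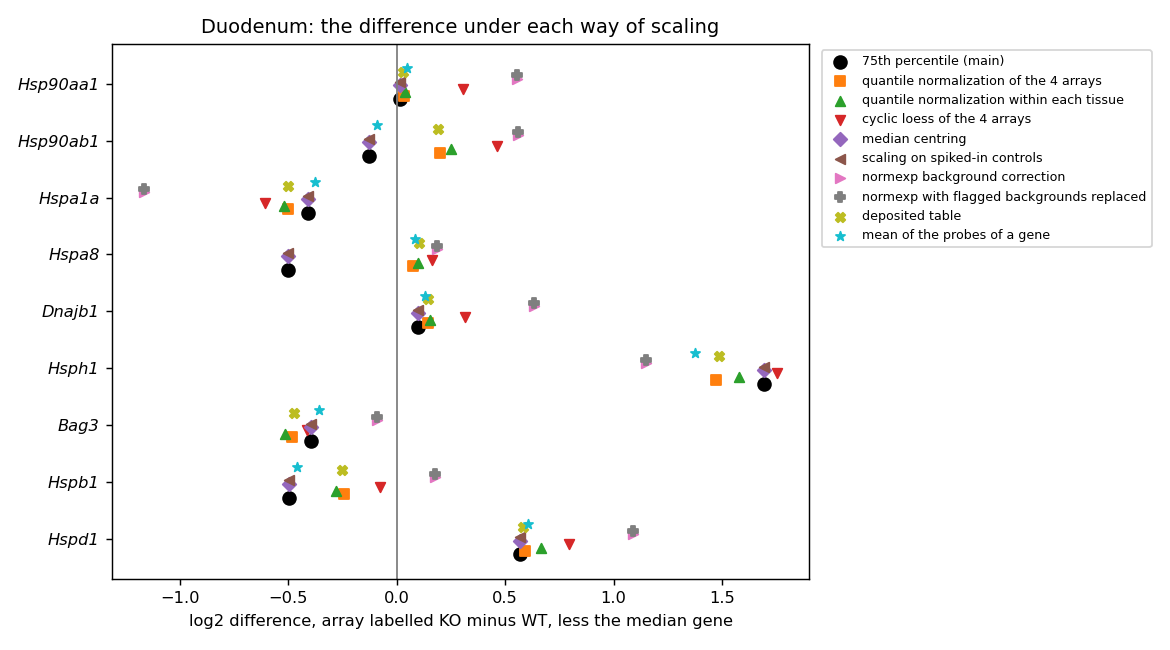
Log2 difference of each heat shock gene in the duodenum less that of the median gene, under the scaling used here (black) and 9 alternatives. Under every setting Hsph1 (1.15 to 1.75), Hspd1 (0.57 to 1.09), Dnajb1 (0.10 to 0.63) and Hsp90aa1 (0.01 to 0.55) lie to the right of 0. Median centring and spiked-in scaling repeat the black value by construction. Hspa1a and Bag3 lie to the left under every setting, while Hsp90ab1, Hspa8 and Hspb1 fall on both sides.

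In the spinal cord none of the 9 genes was 2-fold higher or lower between genotypes as labelled, beside 1.92% of 24165 genes that were higher and 0.53% that were lower. The differences ran from -0.15 for Hspa8 to 0.32 for Hspa1a, around a median of 0.01, and the median of all genes was -0.04. Hsp90aa1 had levels of 5.23 and 5.09, a difference of -0.14, and Hsp90ab1 levels of 5.98 and 5.92, a difference of -0.06, both with a technical SD of 0.06. The 3 Hspa8 probes, which disagreed in the duodenum, gave -0.15, -0.07 and -0.04 here.

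Hspa1a was the member farthest from 0 in the spinal cord, with levels of -2.79 on the WT and -2.47 on the array labelled IP6K2-KO and a difference of 0.32 (technical SD 0.08), above that of 89.9% of genes. It turned to -0.92 under normexp correction, a setting in which the median gene moved by -0.45. Replacing the flagged local backgrounds, which reached 15708 on the WT spinal cord array, brought the range of the 9 genes under normexp back to -0.11 to 0.21. Dnajb1 (0.13), Hspb1 (0.11), Bag3 (0.08) and Hsph1 (0.01) were above 0 and Hspd1 (-0.11) below, all between the 5th and the 95th percentile of all genes, -0.44 and 0.54.

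Hsp90aa1 and Hsph1 differed more between the tissues than between the genotypes. This did not hold for every gene. Hspb1 differed by -0.61 between the duodenum arrays, and between tissues by 0.24 on the WT and -0.48 on the IP6K2-KO arrays. On the WT arrays Hsp90aa1 and Hsph1 were at least 2-fold lower in duodenum than in spinal cord, 2 of the 9 genes where 21.7% of 16260 genes were, and Hspa8 was at least 2-fold higher, where 43.0% were. On the arrays labelled IP6K2-KO, Hspa1a and Bag3 joined them, giving 4 of 9 lower beside 22.2% of 20421 genes, and Hspa8 was again the single gene 2-fold higher beside 33.6%. The median difference of the 9 genes was -0.63 on the WT arrays and -0.79 on the IP6K2-KO arrays, and that of all genes 0.63 and 0.30. In both genotypes 8 of the 9 genes therefore lay below the median gene.

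Hsp90aa1 had levels of 5.23 and 5.09 in the spinal cord and of 2.46 and 2.36 in the duodenum, on the WT and IP6K2-KO arrays. It was 6.83-fold lower in WT duodenum, a difference of -2.77, and 6.63-fold lower on the IP6K2-KO arrays, -2.73. The constitutive Hsp90ab1 differed by 0.38 and 0.20, but these values became -1.61 and -1.42 under quantile normalization, -1.46 and -1.11 under cyclic loess and -4.66 and -1.67 with spiked-in scaling. The Hsp90aa1 difference was negative under each of the 8 alternatives, from -7.81 to -2.55 for WT.

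Hsph1 was 20.5-fold lower in duodenum on the WT arrays (a difference of -4.35) and 6.91-fold lower on the IP6K2-KO arrays (-2.79). The second probe gave -3.57 and -2.73, and the brighter probe was negative under each of the 8 alternatives, from -9.39 to -3.48 for WT. The gap between these WT and IP6K2-KO values is the genotype difference of the duodenum again, since the same 4 arrays are used, and is no further observation.

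Among the other members, Dnajb1 (-0.63 and -0.79 for WT and IP6K2-KO), Bag3 (-0.77 and -1.36) and Hspa1a (-0.47 and -1.31) were lower in duodenum, and Hspa1a alone of these was higher there on the WT arrays under some alternatives, up to 1.52. Hspb1 (0.24 and -0.48) and Hspd1 (-0.69 and -0.13) were within 2-fold as scaled here. On the WT arrays both became 2-fold lower under quantile normalization (-1.18 and -1.43), cyclic loess (-1.14 and -1.56) and spiked-in scaling (-4.80 and -5.73) and in the deposited table (-1.23 and -1.46), and Dnajb1 did so under the same settings, at -1.37 under quantile normalization. The 3 Hspa8 probes ranged from -1.03 to 1.56 on the WT arrays, and the call of its brightest probe turned negative under quantile normalization (-0.77), cyclic loess (-0.47) and spiked-in scaling (-3.48).

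The wider chaperone network was described by 11 lists with 143 genes besides the members. In the duodenum 126 of these were measured on both arrays, of which 8 were at least 2-fold higher and 6 lower on the array labelled IP6K2-KO, with a median of 0.20. The shares of all genes were 7.36% and 14.7%, and the median of all genes -0.11. The lists differed in direction. All 8 measured small heat shock proteins, Hspb1 included, were below 0, as were 55.8% of all genes. Their median was -0.74, and -0.58 under quantile normalization, -0.74 under cyclic loess and -0.56 under normexp correction with flagged backgrounds replaced. Among them were Hspb9 (-1.93), Hspb6 (-1.39) and Hspb7 (-1.10), the last 2 known from muscle. Smooth muscle markers, 5 of 5 above background on both arrays, had a median of -0.54, which was -0.23, -0.49 and -0.02 under the same alternatives, and their summed signal was 74.7 times the 75th percentile on the WT and 51.3 times on the IP6K2-KO array. Their part in the values of the small heat shock proteins was not tested.

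None of the 20 measured Hsp90 co-chaperones passed 2-fold in either direction in the duodenum, and their median was 0.15. For this and each duodenum list below, the shares of all genes were 7.36% higher and 14.7% lower. The co-chaperone median was 0.26 under quantile normalization, 0.26 under cyclic loess and 0.42 under normexp correction with flagged backgrounds replaced. The median gene was then at -0.02, -0.12 and -0.18. Ahsa1, which speeds up the ATPase of Hsp90, differed by 0.80, Chordc1, which binds Hsp90, by 0.79 and Ppid, a cyclophilin of the Hsp90 complex, by 0.67. Stip1, which hands clients from Hsp70 to Hsp90 (-0.12), Cdc37, which brings it kinases (-0.03), and Ptges3, the p23 protein that closes the cycle (-0.56), were below 0. The other Hsp90 genes, Hsp90b1 of the endoplasmic reticulum and Trap1 of mitochondria, differed by 0.34 and 0.25. In the R2TP and TTT complexes, which use Hsp90 to assemble large kinases, Wdr92 (1.09) and Ecd (1.09) were 2-fold higher among 10 measured, and Ruvbl2 was the lowest at -0.87.

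Hsp70 relatives and partners spread to both sides in the duodenum. In the Hsp70 and Hsp110 family 13 genes were measured, Hsph1 among them, and the others farthest from 0 were Hyou1 of the endoplasmic reticulum (-1.21), mitochondrial Hspa9 (0.88) and Hspa4l (0.85), a close relative of Hsph1. Of 36 J-domain proteins Dnajc1 of the endoplasmic reticulum (1.70) and nuclear Dnajc8 (1.34) were 2-fold higher and none lower, with a median of 0.26. Of the 13 exchange and binding factors St13, which binds Hsp70 and slows its release of clients, was 1.11 higher, and Hspbp1 (-0.99) and Bag6 (-0.92) were the lowest.

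In mitochondria Hspe1, the partner of Hspd1 in the chaperonin, differed by 0.27, and 11 of 13 measured chaperones and proteases were above 0, as were 44.2% of all genes, with a median of 0.28 and with the protease subunit Afg3l2 (1.38) and the unfoldase Clpx (1.08) past 2-fold. Of 14 measured subunits of the cytosolic chaperonin CCT and prefoldin, Cct6a was higher by 1.35 and Pfdn4 differed by -1.62. Hsf1, which encodes the main activator of these genes, had a level of 0.59 on both duodenum arrays. Hsf2 differed by -0.61 and Hsf4 by -1.29. None of the 20 other genes known to be induced by HSF1 passed 2-fold, beside 7.36% of all genes higher and 14.7% lower. Their median was 0.04 as scaled here. It was 0.24 under quantile normalization, 0.25 under cyclic loess and 0.35 under normexp correction with flagged backgrounds replaced. 

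In the spinal cord 3 of 139 measured genes of the lists were at least 2-fold higher on the array labelled IP6K2-KO, and none was lower, where 1.92% and 0.53% of all genes were, so the share of the lists was near that of all genes. Their median was -0.02. The 3 were Hspb7 (4.15), Hspb2 (1.41) and Itgb1bp2 (1.78), the last an Hsp90 co-chaperone of striated muscle also called melusin. Hspb7 had a signal of 9.39 on the WT and 179 on the IP6K2-KO array. Skeletal muscle markers were high on the same array: all 7 measured on both were 2-fold higher, by 3.67 to 4.58, and the summed signal of the 8 markers was 67.0 times the 75th percentile on the IP6K2-KO array and 4.21 times on the WT array, where Mylpf was not above background. All 4 red cell markers were also above 0, with a median of 1.02. Of the 3 Schwann cell markers measured on both arrays 2 were 2-fold higher, by 5.23 and 5.61, and the other differed by 0.04. The sum of the 4 was 32.8 times the 75th percentile against 23.4 times on the WT array, where Pmp2 was not above background. The part of these cells in the values of Hspb7, Hspb2 and Itgb1bp2 was not tested. Serpinh1, a collagen chaperone of the endoplasmic reticulum, differed by 0.85, Hspb3 by 0.76, Unc45b, a myosin chaperone, by 0.68, Cryab by 0.49 and Hsf1 by 0.46, while Cct6b of the cytosolic chaperonin differed by -0.76 and Uri1 by -0.40.

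**Figure D5:**
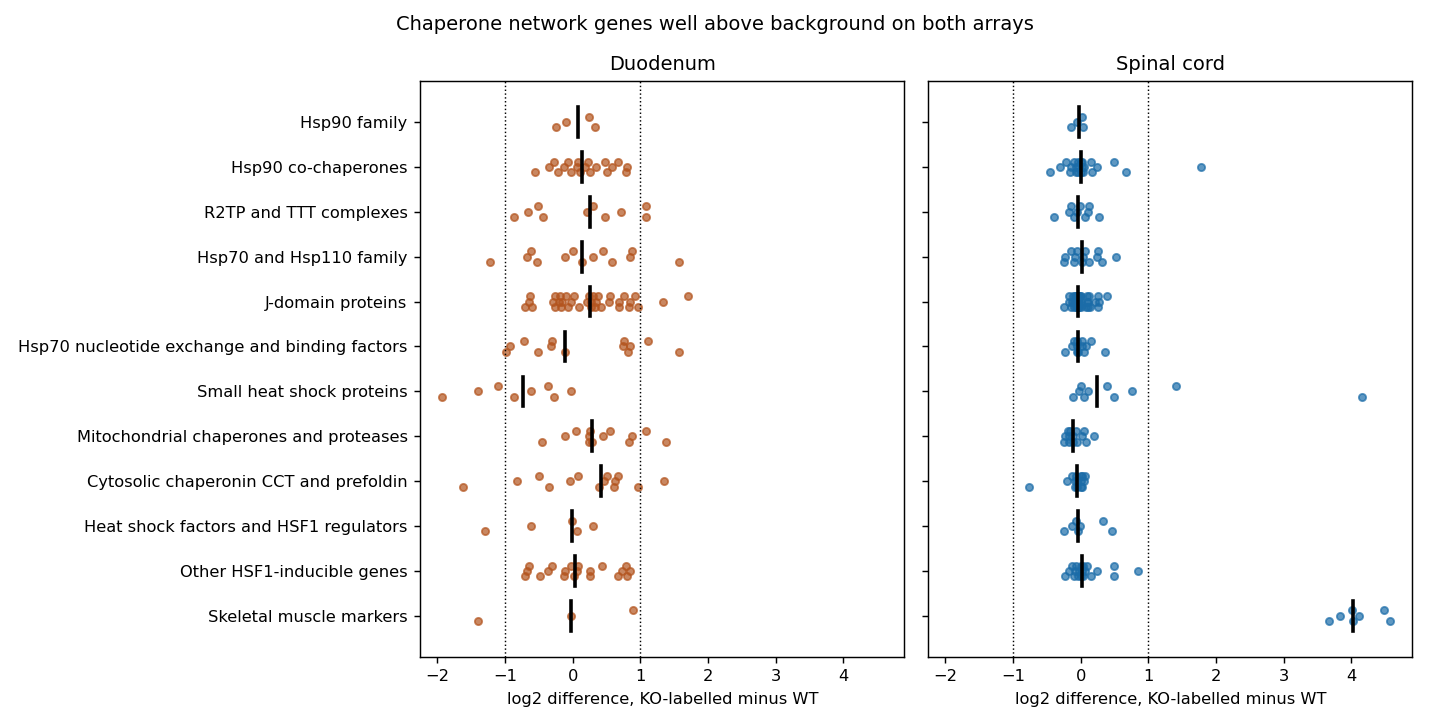
Log2 difference, array labelled IP6K2-KO minus WT, of every listed chaperone gene measured on both arrays, by list, with the median of the list (bar) and 2-fold marked by dotted lines. The small heat shock proteins lie below 0 in duodenum (median -0.74), and in spinal cord Hspb7 (4.15) lies among the skeletal muscle markers (3.67 to 4.58).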

How the data were processed

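Cy3-labelled cRNA from 0.1 ug of RNA (RNA integrity number above 7) was hybridized to one-colour Agilent mouse arrays. The authors deposited scanner output of Agilent Feature Extraction 11.5.1.1 (per the submitters' processing notes), in which the intensity of each spot had been background-subtracted and detrended, and a series table on the log2 scale. Set against the scanner values, the deposited log2 table matched quantile normalization of the 4 arrays (column medians 5.12). Besides control spots, each array held 43020 spots, of which 89 to 133 were flagged and left out.

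Here, log2 of the intensity minus each array's 75th percentile was taken, spots of a probe were averaged, and a gene was represented by whichever of its probes was brightest on average. Of 26391 probes with a RefSeq mRNA accession, 25868 matched a symbol. A gene counts as 2-fold higher or lower only if well above background on both arrays. No test was made with single arrays, and the number of arrays limits the precision. The technical SD came from 399 probes spotted 10 times, over the 50 nearest in brightness. Alternatives were quantile normalization of the 4 arrays or within each tissue, cyclic loess, median centring, scaling on 8 spiked-in controls, normexp (offset 50) with and without replacing flagged backgrounds, averaging the probes of a gene, the deposited table, no background filter, a dim probe entered at its bound and a 1.5-fold threshold. R 4.3.3 with limma 3.58.1 and Python 3.11.15 were used, and the functions were tested on simulated data.

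The members and gene lists were chosen with earlier results of these data known. Named genes are the members, Ip6k2, up to 3 genes of each list with the largest difference between genotypes in each tissue, any gene 2-fold apart in the same direction in both tissues, and the core regulators and partners Hsf1, Hsf2, Hsp90b1, Trap1, Hspe1, Stip1, Ahsa1, Cdc37 and Ptges3.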

Additional observations from a re-analysis of the deposited data

Results flagged for a closer look

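For 4 heat shock genes the difference between the arrays labelled IP6K2-KO and WT had opposite signs in the 2 tissues, with each difference larger than its technical SD. The duodenum difference minus the spinal cord difference was -0.84 for Hspa1a, -0.72 for Hspb1, -0.59 for Bag3 and 0.56 for Hspd1 on the log2 scale. With 1 array per group this difference between tissues was not tested, and all 4 genes stayed within 2-fold in either tissue as first scaled. Under spiked-in scaling, where the median gene of the duodenum was 2.89 higher on the IP6K2-KO array, Hspa1a (2.48), Hspb1 (2.39) and Bag3 (2.49) were above 0 there, and their spinal cord differences were 0.15, -0.06 and -0.09, so that the signs still differed for Hspb1 and Bag3, the other way round. Under normexp correction Hspa1a (-1.34 in duodenum, -0.92 in spinal cord) and Hspd1 (0.91 and 0.24) had the same sign in both tissues. With flagged backgrounds replaced, their spinal cord differences were 0.21 and -0.10, so their signs differed again. Hspb1 was at -0.002 in the duodenum under normexp correction and at -0.003 with flagged backgrounds replaced.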

How the results depend on the processing

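No paired analysis was run. Each genotype and tissue had 1 array, and the labels give no replicate numbers that pair the arrays. In the duodenum the count of members at least 2-fold higher was 1 as reported, 9 with spiked-in scaling and 0 with normexp correction, with or without replaced backgrounds. The count of members lower was 0 as reported, 1 (Hspa1a) under either normexp correction and 2 at a 1.5-fold threshold. Between the tissues on the WT arrays the count higher in duodenum, 1 as reported, was 0 with quantile normalization, cyclic loess, spiked-in scaling, the deposited table or the mean of the probes. The count lower, 2 as reported, was 7 with quantile normalization, 6 with cyclic loess, 9 with spiked-in scaling, 5 with normexp correction and replaced backgrounds, 6 in the deposited table and 5 at a 1.5-fold threshold. On the IP6K2-KO arrays the count higher, 1 as reported, was 0 with quantile normalization, cyclic loess, spiked-in scaling, either normexp correction, the deposited table or the mean of the probes, and the count lower, 4 as reported, was 7 with quantile normalization, 8 with spiked-in scaling, 7 in the deposited table, 6 with cyclic loess and 3 with either normexp correction. The difference of Hspa8 between tissues, 1.56 for WT and 1.09 for IP6K2-KO, became -0.77 and -0.61 with quantile normalization, -0.47 and -0.34 with cyclic loess, -3.48 and -0.78 with spiked-in scaling and -0.88 and -0.65 in the deposited table. The cause of these changes was not tested. Shares of all genes were counted only at 2-fold under the scaling used here. The counts of members under other settings therefore have no share of all genes beside them. With spiked-in scaling the median gene itself differed between tissues by -4.41 for WT and -1.57 for IP6K2-KO. The counts of 0 in the spinal cord held under every alternative run. The dim WT duodenum array, with 51.6% of probes above background, limits the low values.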
